A study of Homo sapiens with 5 samples.

Results

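Human brain organoids grafted into the mouse brain were compared between 4 and 2 months after transplantation (4MPT and 2MPT), over the families and pathways that lie beyond glial and inhibitory marker genes. The members were human cells with over 500 UMIs, over 500 genes and a share of mitochondrially encoded (MT-) transcripts under 0.15 against the human reference, and with over 80% of their UMIs on human genes in the human-mouse dual reference. HIP_2MPT held 8277 such cells, PFC_2MPT 5952, HIP_4MPT 6913 and PFC_4MPT 8363, together 29505 of the 34405 human cells of the series, the others being D0 organoids on day 42 of culture. HIP and PFC are the hippocampus and prefrontal cortex of the host. All 4 graft libraries came from organoids of 1 engineered derivative of H9, a human embryonic stem cell line, carrying channelrhodopsin-2 fused to EYFP at the AAVS locus (the labels give the genotype as WT). They were placed on day 42 of culture into immunodeficient SCID-Beige mice, which lack functional T and B lymphocytes of their own. The fluorescent tissue was dissected out and dissociated with Trypsin-EDTA. Each library was 1 droplet capture, and how many animals entered it is not given in the sources used here. The HIP and PFC library of a stage therefore stood as its 2 replicates. Every p-value thus measures the spread between 2 captures at different graft sites, where site cannot be told apart from animals and capture. It does not measure the spread between animals of a site.

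In the developing cortex, radial glia first make neurons and later turn to astrocytes and cells of the oligodendrocyte lineage. Growth factor receptors of the EGF and FGF families, BMP, Wnt and Notch signals and a set of chromatin and RNA-binding proteins of the early fetal brain take part in that turn. Neurons meanwhile exchange the adhesion and guidance proteins of outgrowth for those of contacts, and glia take over lipid supply, ion buffering and the deposition of extracellular matrix.

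A unique molecular identifier (UMI) tags 1 captured RNA molecule, and levels are given in CPM, the UMIs of a gene over all UMIs of the human cells of a library, scaled to a total of 1000000. Where 2 values of a stage follow each other, the first is HIP and the second PFC. The libraries held between 11192237 and 21459173 human UMIs, with a median of 1253 to 2759 UMIs a cell, both extremes being HIP libraries. Any 2 graft libraries shared 9 to 20 cell barcodes. PFC_4MPT stood apart in that 7.31% of the UMIs of its median cell were mitochondrial, against 2.35 to 3.77% in the other 3. To look at a change within a part of the mixture, each cell was also put on the neuron side or the glia side by which of 2 sums of marker genes, neuronal (18 genes) or glial and progenitor (30 genes), was larger. These sides are ranges of a score and not cell types, and 1.55 to 7.66% of the cells of a library lay within 1 UMI of the cut. The glia side took 9.71 and 20.6% of cells at 2MPT and 35.7 and 27.8% at 4MPT, and a summed level over all cells cannot tell fewer cells of a type from less RNA per cell. Astrocyte markers summed to 399.9 and 643 CPM at 2MPT and 1878 and 1155 CPM at 4MPT (12 of 17 called higher). For the oligodendrocyte lineage the sums were 55.9 and 78 CPM at 2MPT and 809.8 and 485 CPM at 4MPT (11 of 13), and for inhibitory neurons 31.7 and 72.2 CPM at 2MPT and 301 and 905 CPM at 4MPT (9 of 16). How far these shifts in the mixture of cells carry the changes below was not tested as such, and the change within each side is given beside the genes it bears on. Marker levels also shifted within the sides. In neuron-side cells 11 of 16 inhibitory markers were called higher (median log2(Fold change) 4.81). In glia-side cells 7 of 9 oligodendrocyte lineage markers (4.61), 8 of 11 astrocyte markers (2.68) and 7 of 13 inhibitory markers (3.66) were. Over all genes tested 0.674% were called higher in neuron-side cells and 2.15% in glia-side cells. A change within a side was not separated from such shifts. Genes of the gate are left out of all results by side, and where no side is named a count of calls is over all cells. Choroid plexus, vascular and blood markers that passed the filter on low counts summed, each list by itself, to at most 40.4 CPM in any library.

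Which genes differed between the stages was tested across 18127 genes with edgeR. At an adjusted p under 0.05, 452 genes or 2.49% were called, 359 of them (1.98%) higher and 93 (0.513%) lower at 4MPT. Leaving 1 library out moved these to 76 to 1009 higher and 3 to 539 lower, with the fewest calls without PFC_4MPT and the most without PFC_2MPT. Of all genes tested 2596 had an unadjusted p under 0.05. Of the called genes 413 stood on no glial, inhibitory or gate list. The median log2(Fold change) of all genes tested was -0.005, with 8981 above 0. A pair of values in parentheses after a gene's levels gives its log2(Fold change) and its Benjamini-Hochberg adjusted p in edgeR, and where there are 3 the middle one is the standard error. A size is the absolute value of a log2(Fold change).

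The genes with the largest increases outside the marker lists included lipid carriers, a chemokine receptor, homeobox factors and receptors of growth factors. APOD (apolipoprotein D, ENSG00000189058, chromosome 3, 195568705 to 195584033) had 0.268 and 0 CPM at 2MPT and 17.5 and 22.2 CPM at 4MPT, and its log2(Fold change) was 7.39 (standard error 0.645, adjusted p = 8.16e-04). That fold stood on 3 UMIs at 2MPT, and the ratio of the summed counts was 172 (exact 95% interval 58.5 to 835, counting error only). ACKR3 (ENSG00000144476, chromosome 2, 236567787 to 236582354), an atypical receptor that takes up the chemokine CXCL12, went from 0.0893 and 0.330 to 10.3 and 12.5 CPM, with a log2(Fold change) of 5.67 (0.532, 8.53e-04). GSX1, a homeobox factor of ventral forebrain progenitors, went from 0 and 0.727 to 15.4 and 20.6 CPM (5.51, 0.00310), and its relative GSX2 from 0.179 and 2.18 to 20.4 and 23.9 CPM (4.19, 0.00751). DESeq2 called neither GSX1 nor GSX2 in all cells. In all 4 genes each 4MPT library lay above each 2MPT library, a pattern that 19.3% of all genes tested showed. APOE, ERBB4, NTRK2, C1QL2, FXYD1 and GPR37L1 made up the rest of the 10 with the largest increases and are described with their families. Among the 10 with the largest decreases, SNCB (beta-synuclein, a presynaptic protein) went from 33.7 and 14.9 to 1.17 and 2.96 CPM, a log2(Fold change) of -3.50 (0.520, 0.00774), and the long noncoding RNA LINC00486 from 161 and 94.1 to 24 and 22 CPM (-2.41, 0.00289). The others were RPRML (37.3 and 4.89 to 0.792 and 2.08 CPM, with the 2MPT libraries far apart), AC022395.1 (-3.70), NHLH1, PHYHIP (-2.71), ADRA2A, the dynein adaptor BICDL1 (-2.32), PRKG2 and TENM2. SNCB, LINC00486 and AC022395.1 were also called lower in neuron-side cells, where the log2(Fold change) was -3.25 for SNCB, -2.34 for LINC00486 and -3.87 for AC022395.1 (adjusted p = 0.00446, 0.00293 and 0.00983). So were ADRA2A (-2.53, 0.0157), BICDL1 (-2.14, 0.0223), NHLH1 (-2.64), PRKG2 (-2.03) and TENM2 (-2.08). Of the 20 calls, 10 were lost without HIP_4MPT, 14 without PFC_4MPT, 1 (RPRML) without HIP_2MPT and 0 without PFC_2MPT, and each log2(Fold change) kept its sign and a size of at least 1.72.

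**Figure D1:**
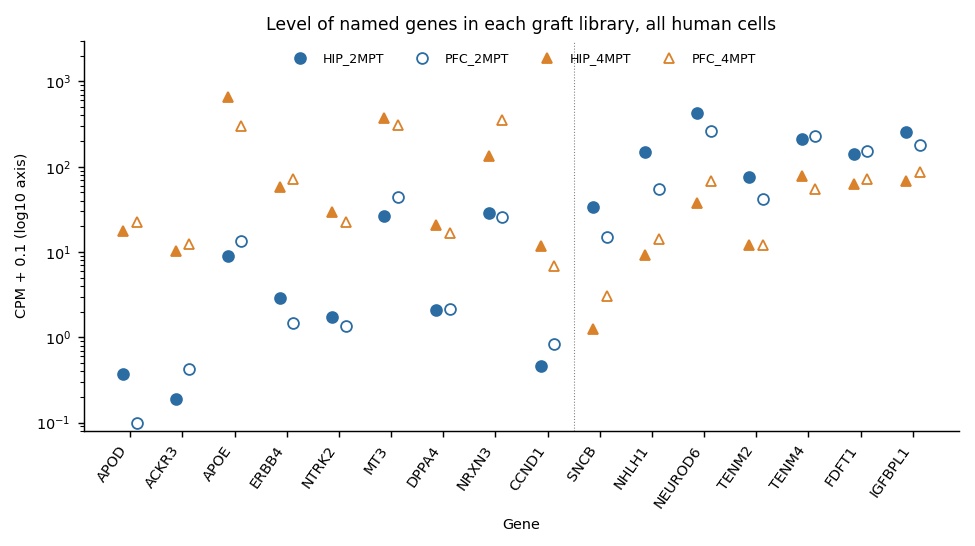
Level of 16 named genes in each graft library, in CPM + 0.1 on a log10 axis, with 2MPT as circles and 4MPT as triangles, HIP filled and PFC open. APOD to CCND1 lie higher in both 4MPT libraries (APOE 8.85 and 13.4 against 658 and 303 CPM), and SNCB to IGFBPL1 lie lower (NHLH1 149 and 55.4 against 9.18 and 14.3 CPM).

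ERBB4 and EGFR, receptors of the EGF family, rose, and 1 of their ligands passed the test. ERBB4 (ENSG00000178568, chromosome 2, 211375717 to 212538841), a receptor of neuregulins, had 2.77 and 1.39 CPM at 2MPT and 58.2 and 71.1 CPM at 4MPT, a log2(Fold change) of 5.05 (standard error 0.352, adjusted p = 4.54e-04). The change was called in neuron-side (5.25, 0.00190) and in glia-side cells (4.40, 5.46e-04). EGFR, which also stands on the glial gate list, went from 7.06 and 18.7 to 171 and 87.2 CPM (3.36, 0.00461). LRIG1, a membrane protein that restrains ERBB receptors, went from 15.6 and 17.7 to 58.9 and 52 CPM (1.79, 0.00361). Of the 8 ligands tested, PDGF ligands included, 1 was called, NRG3 (41.4 and 80.3 CPM at 2MPT and 287 and 123 CPM at 4MPT, 1.79, 0.0476), and NRG1, the other abundant neuregulin, had 368 and 346 CPM at 2MPT and 279.8 and 141 CPM at 4MPT (-0.72, 0.304). The 5 receptors tested summed to 16.5 and 28 CPM at 2MPT and 244 and 170.0 CPM at 4MPT, and the ligands to 451 and 471 CPM at 2MPT and 628 and 316 CPM at 4MPT. The PDGF receptor PDGFRA was not among the 5 and was called higher (4.29) as an oligodendrocyte lineage marker and gate gene. NTRK2 (ENSG00000148053, chromosome 9, 84668375 to 85095751), which encodes the BDNF receptor TrkB and in glia a form without the kinase, went from 1.61 and 1.26 to 29 and 22.2 CPM (4.22, 0.330, 4.54e-04), and its change was called in glia-side cells (3.78, 4.56e-04) and was 1.89 in neuron-side cells (adjusted p = 0.162), the difference between the sides being 1.72 (0.139). It was the only call of 9 neurotrophin and GDNF genes tested in all cells. In neuron-side cells NTRK3, the receptor of neurotrophin-3, was called lower (119 and 66.7 to 26.6 and 30.3 CPM, -1.64, 0.0276), and the difference between the sides was called for NTRK3 (1.39) and for the sorting receptor SORCS1 (-1.48), both chosen after their values were seen.

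Over all cells the calls of FGF signalling fell on targets. None of 8 ligands and 5 receptors tested was called in all cells by edgeR or DESeq2 (1 and 0 had an unadjusted p under 0.05), and the receptors summed to 224 and 147 CPM at 2MPT and 176 and 168 CPM at 4MPT. Of the 12 ETS factors and feedback inhibitors that ERK signalling induces, 3 were called higher and 0 lower. These were the ETS factor ETV1 (6.79 and 22.4 to 99.8 and 55.9 CPM, 2.45, 0.0253), the inhibitor SPRY2 (8.04 and 13.5 to 46.7 and 37.7 CPM, 2.02, 0.00619) and the ERK phosphatase DUSP6 (3.75 and 3.30 to 8.71 and 11.9 CPM, 1.61, 0.0416). In neuron-side cells ETV1 alone was called (2.71, 0.00293), and in glia-side cells 6 of 22 genes were called higher and 0 lower, among them SPRY2 (1.72), DUSP6 (2.41) and ETV1 (1.56). Of all genes tested in glia-side cells 2.15% were called higher. The other glia-side calls, chosen after their values were seen, were SPRY4, which stood on 1 UMI at 2MPT, a ratio of summed counts of 19.7 (exact 95% interval 3.40 to 790.0, counting error only), and FGF14 (1.99, 0.0157) and FGF12 (1.48, 0.0438), listed with the ligands but known as intracellular partners of sodium channels. The difference between the sides was called for FGF14 (1.62, 0.0185) and FGF12 (1.99, 0.0141). Of the 8 calls in all cells on ERBB, neurotrophin and FGF genes named here, 4 were lost without HIP_4MPT and 5 without PFC_4MPT, while 0 was lost without HIP_2MPT and 0 without PFC_2MPT. ERBB4, EGFR and NTRK2 were called in all 4 of these fits, and the size over all 8 was at least 1.12, always upward.

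Among the patterning signals, calls in all cells were upward, and fell on ligands, receptors, targets and inhibitors. Over all genes tested 1.98% were called higher in all cells. In the Wnt list (3 of 42 tested higher, 0 lower, median 0.16), SP5, a transcription factor induced by Wnt, went from 1.34 and 1.78 to 16.3 and 7.95 CPM (2.98, 0.00684), the secreted Wnt inhibitor SFRP2 from 8.76 and 16.9 to 58 and 34 CPM (1.88, 0.0213) and the nuclear effector TCF7L2 from 10.0 and 11.6 to 29.1 and 20.8 CPM (1.25, 0.0367). None of 9 Wnt ligands and 15 receptors tested was called in all cells by edgeR or DESeq2, with an unadjusted p under 0.05 for 2 ligands and 2 receptors. In glia-side cells the ligand WNT7A, chosen after its values were seen, was called higher (adjusted p = 0.0294), on 1 UMI at 2MPT, a ratio of summed counts of 28.4 (exact 95% interval 4.97 to 1134, counting error only). In the BMP and TGF-beta list (5 of 41 higher, 0 lower, median 0.068), the ligand TGFB2 went from 1.16 and 2.77 to 15.6 and 13.1 CPM (2.88, 0.00666), the BMP target ID1 from 15.6 and 33.2 to 82.7 and 106 CPM (2.01, 0.0146), the follistatin-like FSTL5 from 9.02 and 7.47 to 40.7 and 16.5 CPM (1.84, 0.0336) and the receptor BMPR1B from 9.74 and 16.5 to 44.8 and 27 CPM (1.49, 0.0381). TGFB2 was called on both sides (2.94 in neuron-side and 1.90 in glia-side cells). Of the Hedgehog list (2 of 13 higher), the coreceptor GAS1 went from 6.88 and 19 to 107 and 72.6 CPM (2.83, 0.00684) and the inhibitor HHIP from 10.5 and 9.84 to 25.5 and 19.3 CPM (1.20, 0.0416). In glia-side cells GAS1 (2.12) and HHIP (1.23) were called higher and CDON (-1.63) lower. The difference between the sides was called for CDON (-1.49) and GLI3 (-1.75), both chosen after their values were seen. Of the Notch list (4 of 23 higher, median 0.55), the coactivator MAML2 went from 20.4 and 19.4 to 133 and 96.7 CPM (2.59, 8.16e-04), the ligand JAG1 from 5.63 and 8.26 to 36.9 and 23.8 CPM (2.17, 0.00615), and the ligands DLL3 (1.19, 0.0484) and DLL1 (1.15, 0.0337) rose by less. MAML2, JAG1, DLL3 and DLL1 were each called in glia-side cells (2.52, 1.62, 2.68 and 1.05) and none of them in neuron-side cells (1.19, 0.78, 0.32 and 0.031). The difference between the sides was called for DLL3 (2.40, 2.42e-04) and not for MAML2 (1.23, 0.0605), JAG1 (0.83, 0.280) or DLL1 (0.90, 0.141). Without HIP_4MPT 12 and without PFC_4MPT 10 of these 13 calls in all cells were lost, 1 (DLL3) was lost without HIP_2MPT and 0 without PFC_2MPT. All 13 then still had values above 0, of 0.84 or more.

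Growth factor carriers and hormone receptors held 1 or 2 calls a list. IGFBP5, which binds insulin-like growth factors outside the cell, went from 9.11 and 7.33 to 101 and 41 CPM (3.16, 0.383, 0.00310), with 2.83 in glia-side and 0.28 in neuron-side cells (adjusted p = 0.00134 and 0.925) and a difference of 2.19 (0.0981). The related IGFBPL1 moved the other way, from 254 and 181 to 67.2 and 85.7 CPM (-1.44, 0.0208). NR3C1, the glucocorticoid receptor, went from 2.59 and 4.23 to 19.2 and 13.4 CPM (2.29, 0.00925), the only call of 22 nuclear receptor and thyroid genes tested in all cells. On the sides, and chosen after their values were seen, the mineralocorticoid receptor NR3C2 (3.18), TSC22D3 (1.70) and RORB (1.25) were called higher beside NR3C1 (2.31) in glia-side cells, and the thyroid hormone receptor THRB (2.01) in neuron-side cells, with a called difference between the sides for NR3C2 (4.18) and RORB (1.12) and not for TSC22D3 (adjusted p = 0.207) or THRB (0.0861). LIFR, the receptor of the leukaemia inhibitory factor (11.2 and 16.4 to 38 and 29.4 CPM, 1.34, 0.0289), was the 1 call of 15 cytokine genes, and the YAP partner WWTR1 (1.52, 0.0341) the 1 call of 12 Hippo genes. In the retinoid list the 1 call of 12 was CRABP1, a cytoplasmic carrier of retinoic acid, chosen here after its values were seen, with 8.76 and 0.991 CPM at 2MPT and 0.0466 and 0.178 CPM at 4MPT (-5.35, 0.0357). Its 2MPT level was high in HIP_2MPT only. Of these 6 calls, 5 were lost without HIP_4MPT, 5 without PFC_4MPT, 1 (CRABP1) without HIP_2MPT and 0 without PFC_2MPT, with sizes of at least 1.09, and IGFBP5 was called in each of the 4 fits.

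Several transcription factors of excitatory neurogenesis in the cortex fell. Of 19 proneural and neuronal bHLH factors tested, 5 were called lower and 2 higher. NHLH1, switched on in newborn neurons, went from 149 and 55.4 to 9.18 and 14.3 CPM (-3.06, 0.444, 0.00685), NEUROD6, a neuronal gate gene, from 423 and 261 to 37.6 and 68.7 CPM (-2.61, 0.00565), NEUROD4 from 23.9 and 20.1 to 5.92 and 5.93 CPM (-1.83, 0.00783) and the proneural NEUROG2 from 102 and 124 to 25 and 44.8 CPM (-1.63, 0.0241). In each of these the lowest 2MPT library lay above the highest 4MPT library, a pattern that 26.5% of all genes tested showed. NHLH1 was called lower on both sides (-2.64 and -3.06). NEUROG2 and NEUROD4 were called lower in glia-side cells (-2.55 and -2.83), whose gate includes progenitor genes. ST18, a zinc finger factor, went the other way (1.90, 0.0497). FEZF2, which specifies deep-layer projection neurons, went from 46.8 and 21.3 to 11.5 and 6.58 CPM (-1.85, 0.0357) and the cortical factor EMX1 from 71.6 and 62.8 to 20.6 and 26.9 CPM (-1.44, 0.0141). FEZF2 and EMX1 were called lower in glia-side cells (-1.81 and -2.05). In neuron-side cells 0 of the 53 factors of their list tested there were called lower. In the same list of 57 factors tested, LMO3 (4.29 and 13.5 to 70.8 and 66.7 CPM, 2.99, 0.00617), ZIC1 (5.45 and 6.28 to 23 and 22.3 CPM, 2.00, 0.00490) and SOX8 (1.43, 0.0289) rose. RBFOX3, the splicing factor known as NeuN, went from 54.2 and 39.5 to 19.5 and 10.9 CPM (-1.58, 0.0237), with -2.56 in neuron-side cells (0.00293) and 1.46 in glia-side cells (0.263). MBNL2, another splicing factor that rises as neurons mature, went from 11 and 12.9 to 37.2 and 30.4 CPM (1.55, 0.00936) and was called on both sides (1.43 and 1.47). Without HIP_4MPT 10 and without PFC_4MPT 11 of the 12 calls were lost, 0 without HIP_2MPT and 0 without PFC_2MPT, at sizes of 1.04 or more and unchanged signs.

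The early fetal timing genes did not move as 1 group. Of 16 early genes tested, 3 were called lower and 2 higher, with a median of -0.64. HMGA1, a chromatin protein of early progenitors, went from 61.4 and 53.2 to 23.7 and 28.9 CPM (-1.06, 0.0440). Below the 5 CPM floor for naming, and so chosen after their values were seen, LIN28B, which blocks the maturation of let-7, went from 4.47 and 1.98 to 0.326 and 0.178 CPM (-3.54, 0.0208) and the RNA-binding protein IGF2BP1 from 4.11 and 2.84 to 0.140 and 0.178 CPM (-4.34, 0.00572). HMGA2 was called in glia-side cells alone, where it went from 26.6 and 22.4 to 2.45 and 2.58 CPM (-3.14, 7.27e-04). In the other direction, DPPA4 (ENSG00000121570, chromosome 3, 109326144 to 109337546), a gene of pluripotent cells, went from 1.97 and 2.05 to 20.9 and 16.4 CPM (3.26, 0.322, 0.00115), with 3.34 in neuron-side and 2.54 in glia-side cells, both called, and IGDCC4 from 4.11 and 9.45 to 23.8 and 23.5 CPM (1.84, 0.0289). Of 11 markers of pluripotency, mesoderm and endoderm, 8 had a UMI and 1 passed the filter on low counts. Of the 10 late genes, CDKN1C, an imprinted inhibitor of the cell cycle and also the 1 call of 18 imprinted genes, went from 17.1 and 27.6 to 75.6 and 73 CPM (1.79, 0.00751) and was the only call. DPPA4 was called in each fit without 1 library. Of the other 5 calls in all cells, 5 were lost without HIP_4MPT, 5 without PFC_4MPT, 1 (HMGA1) without HIP_2MPT and 0 without PFC_2MPT, the smallest size being 0.87.

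The lipid carriers APOE, APOD and CLU were called higher, and genes of cholesterol synthesis lay mostly below 0. APOE (ENSG00000130203, chromosome 19, 44905791 to 44909393), the main lipid carrier that glia secrete, was at 8.85 and 13.4 CPM at 2MPT and 658 and 303 CPM at 4MPT, a log2(Fold change) of 5.47 (standard error 0.414, adjusted p = 4.54e-04). The increase was called within glia-side cells (57.6 and 47.9 to 1405 and 781 CPM, 4.49, 1.53e-04) and within neuron-side cells (3.41 and 0.905 to 31.5 and 25.5 CPM, 3.80, 0.00293). Whether RNA carried over from other cells added to the neuron-side level was not tested. APOD had no UMI in glia-side cells of either 2MPT library and 37.5 and 57.5 CPM at 4MPT, at least 81.6-fold higher against a floor of 3 UMIs over the 2MPT pair. LRP1B, a large endocytic receptor of the LDL receptor family, went from 7.24 and 6.54 to 74 and 46.2 CPM (3.18, 8.16e-04). CLU, another secreted lipid carrier and also an astrocyte marker and glial gate gene, went from 78.5 and 194 to 722 and 357 CPM (2.03, 0.0388). These were 4 calls of 40 genes of lipid transport and fatty acid metabolism, whose median was 0.14. APOD, APOE and LRP1B were called without any 1 of the libraries. CLU was not called without HIP_4MPT (1.49, adjusted p = 0.328) or without PFC_4MPT (2.41, adjusted p = 0.134).

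Of 22 genes of cholesterol synthesis and its control, 20 had a log2(Fold change) below 0 in all cells, with a median of -0.41, but 1 was called. This was FDFT1 (squalene synthase), at 142 and 153 CPM at 2MPT and 62.6 and 71.2 CPM at 4MPT (-1.08, 0.221, 0.0334), and the call was lost without HIP_4MPT (-0.94, adjusted p = 0.303) and without PFC_4MPT (-1.22, adjusted p = 0.157). The list summed to 1295 and 1515 CPM at 2MPT and 1001 and 1008 CPM at 4MPT. In neuron-side cells, where 165 of 16460 genes (1.0%) were called in all and 54 (0.328%) lower, 4 of the 22 were called lower and 0 higher, with a median of -0.65. There INSIG1, which holds the sterol sensor back in the endoplasmic reticulum, went from 31.6 and 33.8 to 4.77 and 8.66 CPM (-2.22, 0.00895), HMGCS1, which makes HMG-CoA, from 64 and 88.5 to 28.1 and 31.6 CPM (-1.30, 0.0439), SREBF2, the sterol-responsive transcription factor of the pathway, from 148 and 123 to 42 and 60.4 CPM (-1.34, 0.0439), and FDFT1 from 138 and 133 to 36.7 and 48.2 CPM (-1.61, 0.0157). The 3 beside FDFT1 were chosen after their values were seen. In glia-side cells none of 22 was called by edgeR or DESeq2 (8 had an unadjusted p under 0.05), with a median of -0.53, and the difference between the sides was not called for any member (adjusted p = 0.0677 for INSIG1 and 0.0642 for FDFT1). Without HIP_4MPT 3 and without PFC_4MPT 1 of the 4 neuron-side calls were lost, 0 without HIP_2MPT and 1 (HMGCS1) without PFC_2MPT, over values of -2.76 to -1.01, and INSIG1 kept its call in all 4 fits.

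Promoters are shown for the sterol genes called lower in neuron-side cells other than FDFT1, which is not printed. They are shown because SREBP factors, the products of SREBF1 and SREBF2, act on this pathway through sterol regulatory elements, often beside a CCAAT box. The RefSeq table (GRCh38.p14) held a promoter for 17 of the 22 genes, and those of HMGCS1, SREBF2 and INSIG1 are printed 5′ to 3′ on the gene's strand, from 250 bases before to 50 after the annotated start, with matches on either strand in capitals. The letters searched were CACNCCAC for the core of the element and CCAAT, on both strands and with overlaps counted.
HMGCS1, chr5:43313363-43313662, minus strand: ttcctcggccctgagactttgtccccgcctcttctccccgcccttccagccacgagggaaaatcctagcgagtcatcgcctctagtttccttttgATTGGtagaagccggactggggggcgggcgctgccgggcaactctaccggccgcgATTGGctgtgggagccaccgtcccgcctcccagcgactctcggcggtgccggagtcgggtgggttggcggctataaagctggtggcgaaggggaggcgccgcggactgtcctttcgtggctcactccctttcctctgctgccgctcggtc
SREBF2, chr22:41832855-41833154, plus strand: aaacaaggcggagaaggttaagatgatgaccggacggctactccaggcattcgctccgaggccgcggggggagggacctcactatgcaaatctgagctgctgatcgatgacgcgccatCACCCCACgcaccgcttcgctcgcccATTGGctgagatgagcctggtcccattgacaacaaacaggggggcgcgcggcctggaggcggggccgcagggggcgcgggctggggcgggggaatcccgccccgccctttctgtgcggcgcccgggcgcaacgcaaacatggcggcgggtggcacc
INSIG1, chr7:155297628-155297927, plus strand: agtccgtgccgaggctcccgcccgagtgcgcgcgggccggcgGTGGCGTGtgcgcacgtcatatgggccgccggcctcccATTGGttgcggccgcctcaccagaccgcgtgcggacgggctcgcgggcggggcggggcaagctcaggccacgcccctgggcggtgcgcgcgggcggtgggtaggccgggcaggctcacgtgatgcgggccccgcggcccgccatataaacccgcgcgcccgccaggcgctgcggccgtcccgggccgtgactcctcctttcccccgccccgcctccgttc
SREBF2 and INSIG1 each held 1 match to the core and HMGCS1 held 0, and CCAAT was found 2 times in HMGCS1 and 1 time in each of the others. Over the 17 cholesterol genes 3 held the core, and over all 27305 promoters of this length 5.74% did. For CCAAT the numbers were 14 of 17 and 35.7%. A match describes these letters only.

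**Figure D2:**
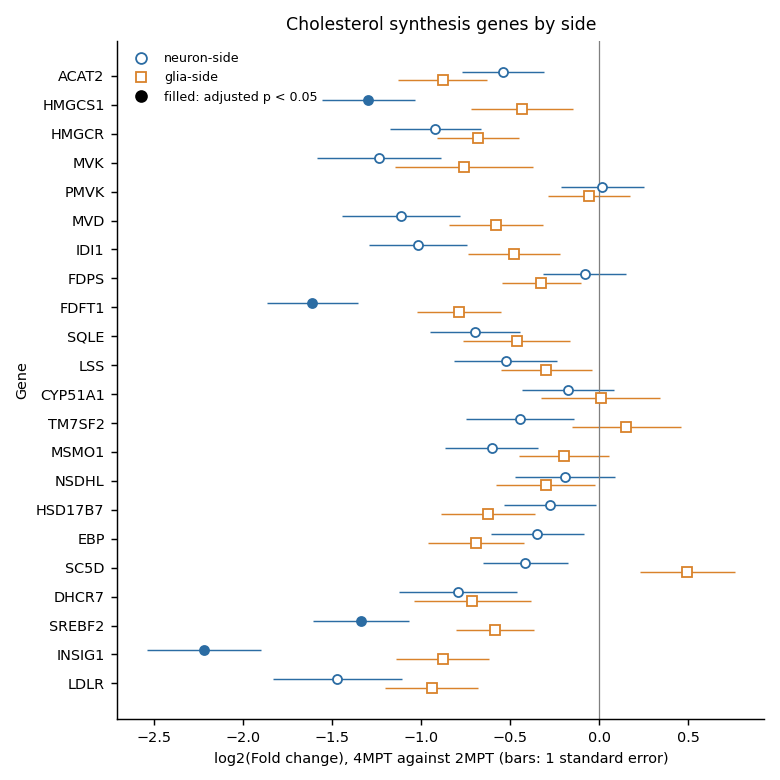
Log2(Fold change) of 4MPT against 2MPT for the 22 cholesterol genes in neuron-side (circles) and glia-side cells (squares), in the order of the pathway from top to bottom, with bars of 1 standard error and filled symbols for genes called at an adjusted p under 0.05. The neuron-side values have a median of -0.65 and the glia-side values one of -0.53, and the 4 filled symbols are all on the neuron side.

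Metallothioneins, small proteins that bind zinc and copper, were all above 0, and 2 of 6 tested were called higher. MT3, the brain form, went from 26.5 and 44.4 to 373 and 308 CPM (3.31, 0.297, 8.16e-04), with 2.87 in neuron-side and 2.22 in glia-side cells, both called. MT1M went from 2.14 and 3.90 to 16.7 and 55.1 CPM (3.63, 0.00936), and its highest value was in PFC_4MPT. The copies of this family are near-identical in sequence, so reads may be shared among them. MGST1, a microsomal glutathione transferase, went from 6.88 and 7.86 to 33.4 and 19 CPM (1.87, 0.0124), with 2.47 in neuron-side cells (0.0157), and was the 1 call of 32 antioxidant genes in all cells. In neuron-side cells the selenium carrier SELENOP (2.91, 0.0210) and the thioredoxin inhibitor TXNIP (1.47, 0.0302), chosen after their values were seen, were called higher as well. None of 18 genes of iron, zinc and copper handling was called by edgeR or DESeq2 (3 had an unadjusted p under 0.05), and ferritin heavy chain FTH1 was at 2200.5 and 2130 CPM at 2MPT and 1820.1 and 2530.4 CPM at 4MPT. ALDOC, the aldolase of astrocytes, went from 25.9 and 17.4 to 69.8 and 54.7 CPM (1.58, 0.0122) and was the 1 call of 24 glycolysis genes, at 1.53 (called) in glia-side and -0.13 in neuron-side cells, a difference of 1.45 (0.103). ADM (adrenomedullin, a vasodilator peptide), from 1.07 and 0.661 to 5.96 and 9.72 CPM (3.26, 0.00746), was the 1 call of 20 hypoxia-inducible genes. Among lysosomal genes the cathepsins CTSL (1.29, 0.0220) and CTSH (1.48, 0.0457) were the 2 calls of 31. Of the 28 transporters, the bicarbonate transporter SLC4A4 (3.93 and 4.96 to 22.6 and 21.7 CPM, 2.37, 0.00310) and the cystine exchanger SLC7A11 (3.13 and 2.51 to 9.46 and 9.84 CPM, 1.84, 0.0232) rose. Of these 9 calls 5 were lost without HIP_4MPT, 8 without PFC_4MPT, 0 without HIP_2MPT and 0 without PFC_2MPT, MT3 being called each time, and each value stayed above 0 at 1.24 or more.

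In the extracellular matrix, calls fell on proteoglycans, on secreted organisers, on proteases and on collagen and basement membrane genes. Of 27 proteoglycan and hyaluronan genes 5 were called higher and 0 lower, among them brevican (BCAN, 18.1 and 32.9 to 284 and 159 CPM, 3.16, 0.00237), CSPG5 (13.9 and 28.3 to 116 and 98.2 CPM, 2.39, 0.00462) and syndecan-3 (SDC3, 0.95, 0.0498). BCAN and CSPG5 were called in glia-side cells (2.16 and 1.52) and not in neuron-side cells (2.04 and 1.42), with no called difference between the sides (adjusted p = 1.00 and 0.971). Of secreted proteins that act on synapses, C1QL2 went from 0.357 and 1.72 to 31.4 and 13.6 CPM (4.39, 0.00462), SPARCL1, also an astrocyte marker, from 7.95 and 6.34 to 196 and 62.7 CPM (4.22, 0.00237), SPON1 from 2.68 and 2.97 to 18.4 and 13.8 CPM (2.56, 0.00372) and LGI1 from 1.70 and 0.529 to 6.34 and 6.76 CPM (2.66, 0.0286), the 4 calls of 21. The protease MMP2 rose from 0.536 and 0.396 to 9.27 and 7.06 CPM (4.18, 0.00237), ADAMTS6 from 15.3 and 27.4 to 129 and 49.1 CPM (2.09, 0.0290), and the cathepsin inhibitor CST3, also on the glial gate list, from 317 and 309 to 1759 and 1278 CPM (2.33, 0.00263). Of 45 collagen, laminin and basement membrane genes 4 were called higher and 1 lower, with a median of 0.22 and LAMA4 (2.15, 0.0317) and NID1 (2.09, 0.0268) as the higher ones that passed 5 CPM. The lower one, COL1A1, was at 1.16 and 2.05 CPM at 2MPT and 0.186 and 0.119 CPM at 4MPT and was chosen after its values were seen. Vinculin (VCL), which links integrins to actin, was the 1 call of 20 adhesion genes and fell (75.4 and 68.4 to 28.4 and 32.7 CPM, -1.17, 0.0248). Without HIP_4MPT 8 of these 14 calls were lost, without PFC_4MPT 8, without HIP_2MPT 1 (SDC3) and without PFC_2MPT 2 (SDC3 and COL1A1), the smallest size then being 0.86.

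Over all cells, guidance genes moved in both directions within each family. In neuron-side and in glia-side cells 0 members of these families were called lower. Semaphorin receptors and ligands fell in part, with 3 of 28 called lower and 1 higher. SEMA6D went from 119.6 and 85.6 to 39 and 27.6 CPM (-1.57, 0.0122), the receptor NRP1 from 284 and 209.8 to 105 and 106 CPM (-1.17, 0.0325) and PLXNA4 from 124 and 109 to 60.8 and 51.3 CPM (-1.0, 0.0413), while SEMA5A rose from 3.04 and 4.36 to 11 and 24 CPM (2.30, 0.0240). The family summed to 1684 and 1297 CPM at 2MPT and 952 and 929 CPM at 4MPT. Of 19 ephrin and Eph genes, the receptor EPHA4 fell (164 and 89.1 to 47.3 and 49 CPM, -1.33, 0.0435) and the ligand EFNA5 rose (2.23 and 0.991 to 9.60 and 6.88 CPM, 2.43, 0.0228), the latter on both sides (2.32 and 2.68). Of the 21 slit, netrin and RGM genes, SLIT1 (2.50 and 3.77 to 19.1 and 15.2 CPM, 2.49, 0.00461), the netrin receptor UNC5C (6.08 and 4.76 to 32.3 and 25.4 CPM, 2.47, 0.00237), NTNG1 (2.02, 0.0194) and RGMA (1.57, 0.0407) rose, and UNC5A, another netrin receptor, fell (29.1 and 16.3 to 4.05 and 7.41 CPM, -1.92, 0.0336). UNC5C rose in neuron-side cells (6.32 and 6.06 to 51.8 and 35.1 CPM, 2.86, 0.00124) and SLIT1 in glia-side cells (0.885 and 1.24 to 34.3 and 24.4 CPM, 4.74, 4.43e-04). Of the 11 calls only UNC5C was kept in each fit without 1 library. Without HIP_4MPT 9 and without PFC_4MPT 10 were lost, without HIP_2MPT 3 (NRP1, PLXNA4 and EPHA4) and without PFC_2MPT 0, with sizes down to 0.83.

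Of the 2 protocadherin groups, calls fell on the non-clustered genes. Among 11 non-clustered protocadherins 4 were called higher, 8 were above 0 and the median was 1.24, and in glia-side cells 5 of 9 were called with a median of 1.86. The shares called higher over all genes tested were 1.98% in all cells and 2.15% in glia-side cells. PCDH9 went from 35.4 and 41.5 to 97.1 and 105 CPM (1.45, 0.00919), PCDH10 from 8.49 and 12.4 to 31.9 and 21.4 CPM (1.40, 0.0359), PCDH11X from 2.77 and 1.92 to 10.8 and 5.93 CPM (1.89, 0.0432) and PCDH15, a distant relative outside the delta family and also an oligodendrocyte lineage marker, from 6.17 and 1.59 to 19.6 and 25 CPM (2.62, 0.0258). The delta family alone had 3 of 10 called, with a median of 0.86, and 4 of 8 in glia-side cells, with a median of 1.86. Of the clustered family, 27 of 53 genes passed the filter and none was called by edgeR or DESeq2 or had an unadjusted p under 0.05, at a median of 0.17. How well reads could be assigned to single genes of the clustered family was not tested. Its members with the most UMIs were PCDHB2, at 57.9 and 59.8 CPM at 2MPT and 47.8 and 53.8 CPM at 4MPT, and PCDHGA10, at 13.8 and 49 CPM at 2MPT and 57.1 and 63 CPM at 4MPT. Of 24 classical and large cadherins, CDH6 (0.893 and 1.26 to 5.73 and 12.6 CPM, 3.14, 0.0122), CDH8 (1.16 and 3.63 to 27.4 and 9.37 CPM, 2.93, 0.0278), CDH10 (1.40, 0.0381) and CDH13 (20.9 and 22.1 to 53.2 and 51.5 CPM, 1.34, 0.0118) rose and CDH12 fell (10.7 and 12.4 to 3.68 and 3.74 CPM, -1.58, 0.0302). CDH8 and CDH13 were called on both sides. The 9 calls on protocadherins and cadherins included 8 lost without HIP_4MPT, 9 without PFC_4MPT, 0 without HIP_2MPT and 0 without PFC_2MPT, with sizes down to 1.08.

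Of 26 neurexins, neuroligins and partners 3 were called higher and 0 lower, with a median of 0.32. NRXN3 went from 28.9 and 25.4 to 134 and 351 CPM (3.24, 0.426, 0.00459) and was called in neuron-side cells (3.78, 0.00290). LRRTM3, a postsynaptic partner of neurexins, went from 3.48 and 7.07 to 40.7 and 26.7 CPM (2.71, 0.00459) and SLITRK2 from 2.50 and 9.51 to 27.2 and 27.8 CPM (2.23, 0.0371). Teneurins split, with TENM1 up (2.86 and 3.63 to 18.1 and 12 CPM, 2.25, 0.00813) and TENM2 (75.2 and 42.2 to 12.1 and 12.1 CPM, -2.22, 0.00462) and TENM4 (211 and 229 to 77.7 and 54.1 CPM, -1.69, 0.00617) down, and all 3 were called in the same direction in neuron-side cells (2.48, -2.08 and -1.42). Of 24 immunoglobulin adhesion genes, KIRREL3 (7.06 and 6.74 to 104 and 38.2 CPM, 3.41, 0.00310), ALCAM (2.36, 0.0253) and LSAMP (149.6 and 258 to 715 and 412 CPM, 1.51, 0.0436) rose and CNTN5 fell (-1.60, 0.0129). The machinery of release and reception leaned lower. Of 35 vesicle genes 8 were above 0, with a median of -0.38, and the calcium sensor SYT1 was the 1 call (567 and 488 to 254 and 196 CPM, -1.18, 0.0334), itself a gate gene. Of 27 postsynaptic genes the kinase CAMK4 was the 1 call (174 and 176 to 85.8 and 67.8 CPM, -1.13, 0.0262), at -0.83 in neuron-side cells (0.214). Of the 12 calls 9 were lost without HIP_4MPT, 10 without PFC_4MPT, 2 (LSAMP and SYT1) without HIP_2MPT and 0 without PFC_2MPT, at sizes of at least 1.02. NRXN3 and KIRREL3 were kept in each of these fits.

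Channels, pumps and receptors changed in single members. Of 61 potassium channel subunits and partners tested, 3 were called higher and 1 lower, the higher ones that reached 5 CPM being the accessory subunit KCNE5 (0.536 and 0.198 to 12.7 and 4.27 CPM, 4.62, 0.00719) and KCNIP1 (1.70 and 0.925 to 14.3 and 5.16 CPM, 2.96, 0.0213), and the lower one the G protein-gated channel KCNJ6 (72.9 and 24.8 to 13.5 and 10.9 CPM, -1.95, 0.0420). The sodium pump and its regulators held FXYD1 (1.70 and 0.727 to 12.9 and 31.4 CPM, 4.30, 0.00404), called on both sides (4.31 and 3.70), and ATP1B2, a subunit of astrocytes (28.1 and 48.8 to 136 and 122 CPM, 1.80, 0.00953). SCN2A, a voltage-gated sodium channel of young axons, went from 12.2 and 12.2 to 38.3 and 26.8 CPM (1.46, 0.0152) and was called in neuron-side cells (1.83, 0.0159). Of 32 calcium channel and pump genes none was called in all cells by edgeR, 10 had an unadjusted p under 0.05 and 3 were called by DESeq2. The kainate receptors GRIK1 (13.4 and 15.8 to 80.8 and 32.4 CPM, 1.99, 0.0211) and GRIK2 (34.8 and 25.3 to 138 and 65.2 CPM, 1.80, 0.0211) were the calls of 21 glutamate receptor genes, and both were called in glia-side cells (1.80 and 3.20). In the inhibitory receptor list, GABRB1 rose (15.2 and 16.5 to 153 and 36.3 CPM, 2.61, 0.0280), mostly in HIP_4MPT, and the fetal glycine receptor GLRA2 fell (51.6 and 44.5 to 16.5 and 12.7 CPM, -1.66, 0.00617), while 12 of 14 members were below 0. EDNRB, an endothelin receptor, rose (2.50 and 3.37 to 12.5 and 10.1 CPM, 1.99, 0.0153) and the adrenergic receptor ADRA2A fell (14 and 24.2 to 3.22 and 3.38 CPM, -2.48, 0.00617). The orphan receptor GPR37L1 of glia went from 0.268 and 0.991 to 11.7 and 11.1 CPM (4.15, 0.00309). Of the 13 calls 11 were lost without HIP_4MPT, 8 without PFC_4MPT, 1 (KCNJ6) without HIP_2MPT and 0 without PFC_2MPT, the signs being kept at sizes of 0.98 or more.

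Within families of second messenger genes, isoforms moved in opposite directions. The cGMP-dependent kinase PRKG1 went from 49.3 and 94.9 to 469 and 248 CPM (2.35, 0.0101) while PRKG2 went from 18.6 and 20.8 to 4.24 and 3.38 CPM (-2.31, 0.00391), and in neuron-side cells the changes were 2.91 and -2.03 (adjusted p = 0.0138 and 0.0159). Of the phosphodiesterases, PDE7B rose from 1.43 and 1.85 to 8.06 and 5.28 CPM (2.06, 0.0289) and PDE4D fell from 587 and 570.1 to 282 and 236 CPM (-1.10, 0.0367). Of 42 G protein and RGS genes, GNG8 (5.36 and 4.69 to 19 and 18.4 CPM, 1.95, 0.00690) and RGS16 (1.72, 0.0211) rose and GNAI1 fell (69.8 and 87.1 to 35.4 and 29.4 CPM, -1.22, 0.0222). Among the gap junction, water channel and tight junction genes, 5 of 18 were called higher, with the claudin CLDN10 going from 1.34 and 2.51 to 24.3 and 14.5 CPM (3.35, 0.00309) beside the astrocyte markers GJA1 (4.77) and AQP4 (4.68). The chemokine CXCL14 (4.65 and 7.33 to 36.7 and 28 CPM, 2.47, 0.00309) and the alarmin IL33 (1.98, 0.0307) rose beside ACKR3, whose ligand CXCL12 was at 0.804 and 3.04 CPM at 2MPT and 1.40 and 1.48 CPM at 4MPT. Of 16 complement and chemokine genes tested, 3 were called higher and 1 lower. The lower one was CCL2 (-2.83), chosen after its values were seen and also called lower in glia-side cells (-4.25). S100A16 (2.95 and 2.11 to 12.1 and 13 CPM, 2.38, 0.00685), ANXA2 (1.68, 0.0407) and the marker S100B (2.98, 8.16e-04) were the 3 calls of 14 S100 and annexin genes. Cyclin D1 (CCND1) was the 1 call of 37 cell cycle genes (0.357 and 0.727 to 11.6 and 6.76 CPM, 4.06, 0.00311), and DNAH11 the 1 call of 15 genes of motile cilia (2.13, 0.0131). In the interferon list the 1 call of 21 was IFIT1, below the naming floor and chosen after its values were seen (0.893 and 1.26 to 4.24 and 5.57 CPM, 2.23, 0.0307). Of these 18 calls, ACKR3 and CCL2 not being counted, 10 were lost without HIP_4MPT, 13 without PFC_4MPT, 1 (PDE4D) without HIP_2MPT and 0 without PFC_2MPT. The smallest size was 1.02.

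In 23 of the 77 lists no gene was called in all cells, and these lists are grouped here for that reason. They held general machinery of the cell but also clustered protocadherins, calcium channels and immediate early genes. Of their 798 genes tested, 84 had an unadjusted p under 0.05, against 2596 of all 18127 genes tested, and 16 were called by DESeq2. Cytosolic ribosomal protein genes numbered 85, of which 74 were above 0 with a median of 0.22, and they summed to 167060 and 166900 CPM at 2MPT and 181920 and 197680 CPM at 4MPT. RPL10 was at 5434 and 5415 CPM at 2MPT and 5868 and 6813 CPM at 4MPT (0.29, 0.734). None of 80 nuclear-encoded respiratory chain genes (median -0.048), 78 mitochondrial ribosomal proteins (-0.039), 64 translation factors (-0.090), 41 proteasome and ubiquitin genes (-0.083), 40 chromatin regulators (-0.14), 56 histone genes (0.22) or 31 chaperones (0.21) was called by edgeR in all cells, while DESeq2 called HIST1H2BD among the histone genes and HSPB1 among the chaperones, and edgeR called HSPB1 in neuron-side cells (1.20, 0.0394). The 13 mitochondrially encoded transcripts had a median of 0.79, but their sum was 38532 and 24356 CPM at 2MPT and 30612 and 71666 CPM at 4MPT, so that HIP_4MPT lay between the 2MPT libraries and PFC_4MPT alone stood high. Over all cells the cytoskeletal lists had medians below 0 without a call in edgeR, and DESeq2 called 4 microtubule-associated genes (GAP43, MAP1B, STMN2 and STMN4) and 3 motor genes (DYNC1I1, KIF21B and KIF5C). The 15 tubulins (median -0.20) summed to 14822 and 11973 CPM at 2MPT and 7436 and 10703 CPM at 4MPT, with TUBA1A at 7839 and 6091 CPM at 2MPT and 3622 and 5393 CPM at 4MPT (-0.56, 0.494). The 27 microtubule-associated genes had a median of -0.21, with STMN2, a growth cone stathmin, at 3810 and 2559.5 CPM at 2MPT and 1597 and 1519 CPM at 4MPT (-0.97, 0.131), and the 44 motor genes one of -0.12. Within neuron-side and glia-side cells the medians were 0.052 and 0.12 for the microtubule-associated genes (20 and 21 tested, without gate genes). They were -0.21 and -0.066 for tubulins (13 and 12 tested) and -0.11 and -0.19 for motors (44 tested on each side). For the microtubule-associated genes and tubulins these are therefore not the same sets of genes as in all cells. The neuronal gate genes together went from 12266 and 9134 CPM at 2MPT to 5627 and 6122 CPM at 4MPT in all cells, and their part in these values was not tested. The 21 immediate early genes were at a median of -0.34, with FOS at 1613 and 2446 CPM at 2MPT and 1482 and 2646 CPM at 4MPT (0.097, 0.945), and the 13 antigen presentation genes at 0.007, with B2M at 135 and 113 CPM at 2MPT and 198 and 219 CPM at 4MPT (0.80, 0.115). A missed call does not show that a gene stayed level, since with 2 libraries a stage a change needed to be large beside its standard error of 0.240 to 0.457 on the log2 scale (the middle 50% of genes tested) to pass.

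**Figure D3:**
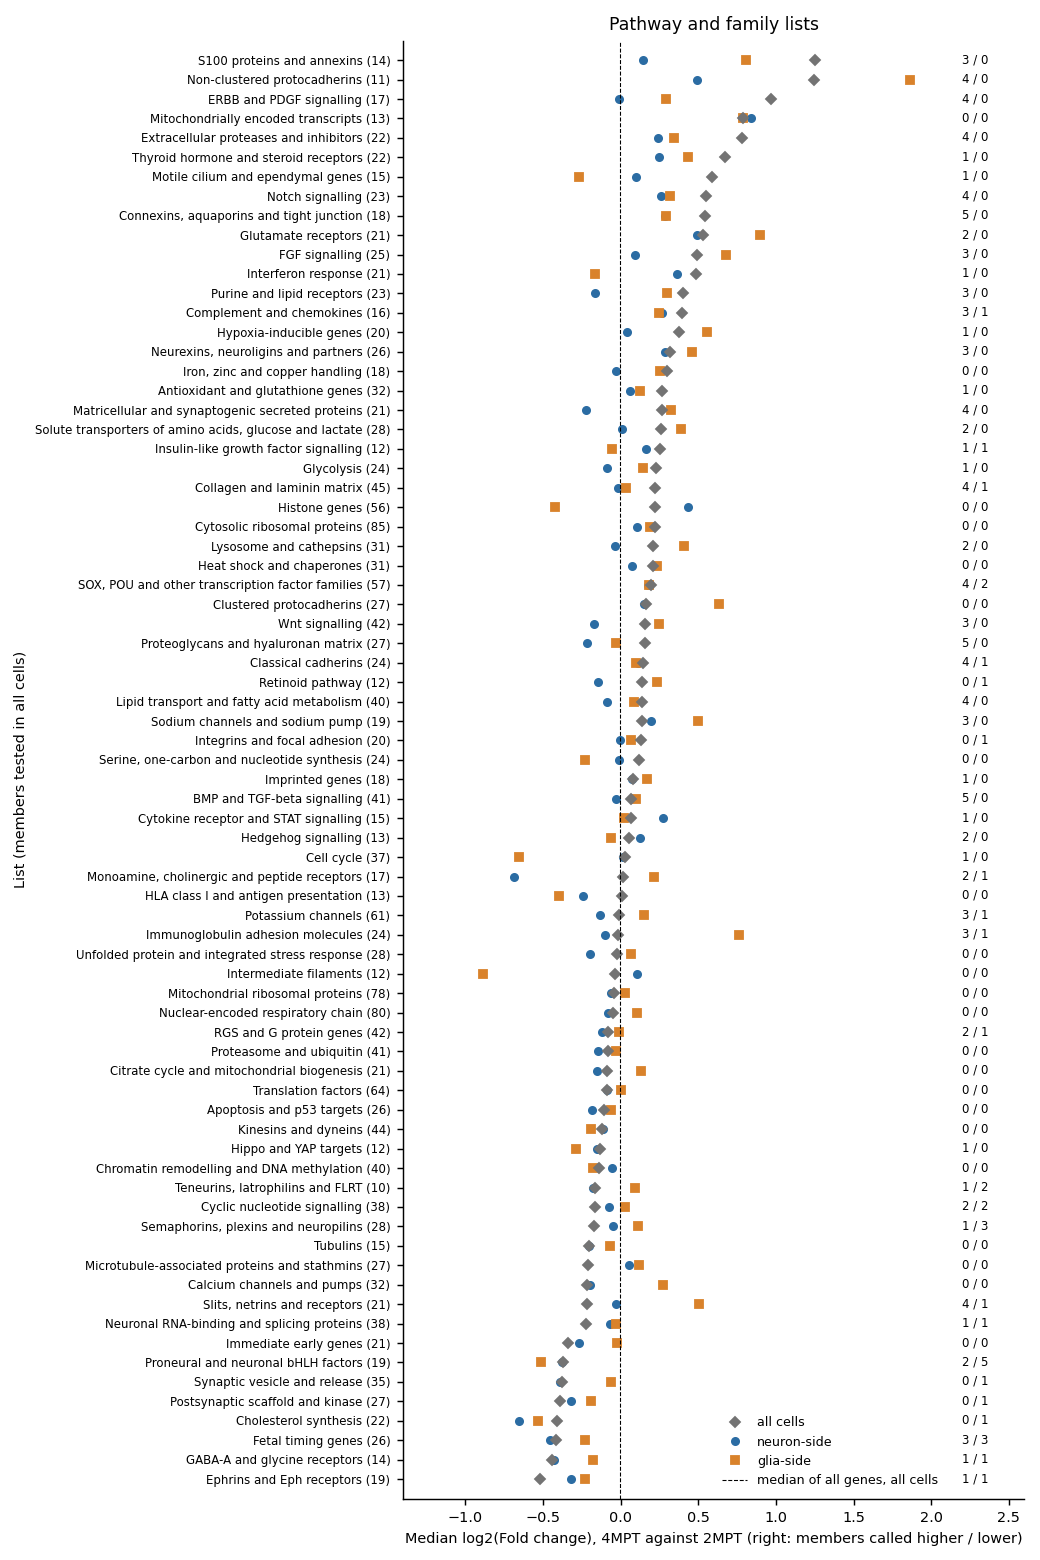
Median log2(Fold change) of 4MPT against 2MPT in each of the 74 lists with at least 10 members tested in all cells (grey diamonds), neuron-side (blue circles) and glia-side cells (orange squares), ordered by the value in all cells, with the number of members called higher and lower in all cells written at the right. Most lists lie near the median of all genes, -0.005, and the lists at the top are S100 and annexin genes (1.25) and non-clustered protocadherins (1.24).

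Within neuron-side cells, 111 of 16460 genes (0.674%) were higher and 54 lower. Among genes at 10 CPM or more in a stage and outside the marker lists, the largest increases were those of PDZRN3, a ubiquitin ligase (0.702 and 0.634 to 23.7 and 53.8 CPM, 5.91, 9.39e-04), ERBB4 (2.11 and 0.996 to 29.4 and 82.4 CPM), the actin-bundling plastin PLS3 (1.40 and 1.36 to 8.06 and 50.9 CPM, 4.48, 0.0191), the metallothionein MT1E (0.702 and 0.724 to 3.03 and 25.7 CPM, 4.39, 0.0439) and FXYD1 (1.20 and 0.634 to 7.02 and 27.6 CPM). PLS3 and MT1E were far higher in PFC_4MPT than in HIP_4MPT. The largest decreases were those of AC022395.1, of ZFPM2, a cofactor of GATA factors, from 144 and 35.9 to 10.5 and 8.86 CPM (-3.15, 0.0165), of the neighbouring antisense transcript ZFPM2-AS1 from 37 and 12.1 to 2.43 and 1.83 CPM (-3.45, 0.00891), of SNCB (36.8 and 19.7 to 1.82 and 3.85 CPM) and of NHLH1 (162 and 64.8 to 13.7 and 20.9 CPM), under the same limit. ZFPM2 was not called in all cells (-1.48, 0.123) and had 77.9 and 61.1 CPM at 2MPT and 58.1 and 64.4 CPM at 4MPT in glia-side cells, a difference between the sides of 2.71 (0.00956). Without HIP_4MPT 0, without PFC_4MPT 1 (MT1E, 2.09, adjusted p = 0.236), without HIP_2MPT 0 and without PFC_2MPT 0 of these 10 calls were lost, and the smallest size was 1.86.

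Within glia-side cells, 405 of 14808 genes (2.74%) were called, 319 (2.15%) higher and 86 (0.581%) lower. APOD, NEU4, ACKR3, LUZP2 and SLIT1 had the largest increases among genes at 10 CPM or more in a stage and outside the marker lists. NEU4, a sialidase, had no UMI at 2MPT and 8.08 and 12.1 CPM at 4MPT, at least 17.3-fold higher against a floor of 3 UMIs over the 2MPT pair, ACKR3 went from 0 and 0.994 to 22.1 and 33.1 CPM (5.23, 6.72e-04) and LUZP2 from 9.74 and 1.24 to 134 and 74.9 CPM (4.99, 0.00115). Under the same limit, the largest decreases were those of the choroid plexus transcript TTR (21.3 and 19.6 to 0.920 and 0.484 CPM, -4.64, 4.56e-04), of AL354863.1 (36.3 and 4.47 to 1.64 and 1.13 CPM, -3.50, 0.0464), of HMGA2, of NHLH1 (39.8 and 26.8 to 3.58 and 3.55 CPM) and of TEPP (27.4 and 6.21 to 1.53 and 1.78 CPM, -3.04, 0.0354). AL354863.1 and TEPP were far higher in HIP_2MPT than in PFC_2MPT. Of 34 cell cycle genes 3 were called lower and 1 (CCND1, 3.81) higher on this side, with a median of -0.65. The lower ones, chosen after their values were seen, were the helicase subunits MCM2 (37.2 and 28.1 to 9.30 and 12.3 CPM, -1.46, 0.0251) and MCM3 (-1.10) and the ribonucleotide reductase RRM2 (-1.06). Of the 52 transcription factors 5 were called higher and 5 lower. EOMES, a factor of intermediate progenitors (154 and 163 to 50.1 and 27.6 CPM, -1.92, 0.00525), and the forebrain progenitor factor LHX2 (370.1 and 359 to 159.6 and 153 CPM, -1.11, 0.0200) were among the latter and were likewise chosen after their values were seen. Of the 10 named genes 0 lost the call without HIP_4MPT, 0 without PFC_4MPT, 2 (AL354863.1, -1.58, adjusted p = 0.378, and TEPP, -1.83, adjusted p = 0.127) without HIP_2MPT and 0 without PFC_2MPT.

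Whether a gene changed by more on one side than on the other was tested as the difference of the 2 changes, in 1 model over both sides of each library. Of 17682 genes 348 (1.97%) were called, 165 (0.933%) with the higher value in glia-side cells and 183 (1.03%) with the higher value in neuron-side cells. TNR (tenascin-R, a matrix protein of the oligodendrocyte lineage) went from 1.77 and 0.745 to 20.0 and 22.6 CPM in glia-side cells and from 14.7 and 8.78 to 1.91 and 5.87 CPM in neuron-side cells, a difference of 5.94 (standard error 0.618, adjusted p = 9.82e-04). The synaptic adhesion gene IGSF21 differed by 5.31 (0.00363), AC012405.1 by 5.07 (0.00376), LUZP2 by 5.02 (0.00361) and the phosphatase PTPRE by 4.97 (0.00316). In the other direction were PDZRN3 (-4.03, 0.00104), NHS (-3.30, 0.0152), the glycosyltransferase GALNT9 (-3.03, 0.0137), AL122014.1 (-2.99, 0.00706) and the unconventional myosin MYO3A (-2.90, 7.23e-04). MYO3A went from 2.61 and 2.81 to 15.5 and 17.9 CPM in neuron-side cells and was at 35.4 and 28.8 CPM at 2MPT and 24.5 and 25.2 CPM at 4MPT in glia-side cells. RBFOX3 was among the called differences (3.97, 0.0141), with neuron-side levels of 59.1 and 51.7 CPM at 2MPT and 6.67 and 11.4 CPM at 4MPT and glia-side levels of 14.2 and 5.96 CPM at 2MPT and 33.8 and 10.0 CPM at 4MPT, as were TENM2 (2.10, 0.00956), PRKG1 (-2.10, 0.0137), NRXN3 (-1.94, 0.00286) and CDKN1C (3.63, 8.18e-04). For APOE, ERBB4 and DPPA4 the difference was 0.54, -0.94 and -0.80 and did not pass the test (adjusted p = 0.648, 0.796 and 0.512). Of the 10 genes with the largest differences 0 lost the call without HIP_2MPT, 4 (AC012405.1, PTPRE, NHS and GALNT9) without PFC_2MPT, 0 without HIP_4MPT and 0 without PFC_4MPT, the smallest size being 2.58.

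**Figure D4:**
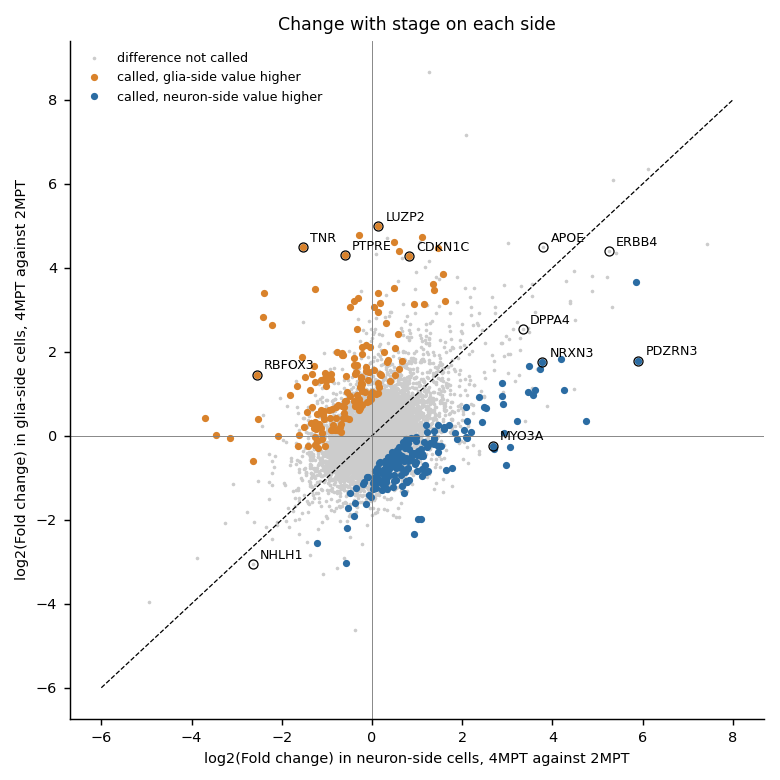
Log2(Fold change) of 4MPT against 2MPT in neuron-side cells (x axis) and glia-side cells (y axis) for the genes tested on both sides other than gate genes (grey points), with genes whose difference was called in colour, orange where the glia-side value and blue where the neuron-side value was the higher. The dashed line marks equal change. TNR and LUZP2 lie far above it, PDZRN3 and MYO3A below it, and ERBB4, APOE and DPPA4 near it at the upper right.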

How the data were processed

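Single-cell 3′ RNA-seq (10x Genomics, version 3 kit) of grafted and D0 organoids was used as the deposited matrices of UMI counts, whole numbers per gene and barcode without normalization. Per the labels, the authors ran Cell Ranger 3.1 against GRCh38, while the headers of the graft files name version 5.0.0 and those of D0 version 3.1.0. Whether intronic reads were counted is not given in the sources used here. Matrices against the human and against a human-mouse reference were deposited, and the former gave the counts and the latter the share of human UMIs of each barcode. Doublets and RNA carried over between cells were not removed, and intervals cover counting error only.

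Cells passing the limits were summed per library. Genes that passed filterByExpr were tested with edgeR 4.0.16 (TMM, quasi-likelihood F test, two-sided) under R 4.3.3, with Benjamini-Hochberg adjustment over all genes tested and a threshold of 0.05. UMI counts were scaled to CPM for display, without a pseudocount. Sides were summed and tested in the same way, and their difference in a model of library, side and side by stage. Cells of a library were not treated as replicates. The scripts were tested on simulated data.

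Named genes were the 10 with the largest change in each direction at 10 CPM or more in a stage and on no glial, inhibitory or gate list, up to 4 called members of each list and direction at 5 CPM or more (for a list without a call, the 2 members with the highest level), and 5 of each direction for each side and for the difference, at 10 CPM or more in a stage and outside the same lists. Gate genes were taken out of counts by side after the fit. The 77 lists, the members and the tests were chosen with earlier results of these data known. Some members are not reported here. The alternatives were DESeq2 1.42.0, RLE factors, no filter, graft site as a block, each library left out, cells thinned to 1000 UMIs, other cell filters, the dual reference, D0 added to the fit and, for the sides, a gate ratio of 2. Coordinates are those of GENCODE v44 on GRCh38 by gene identifier, and promoters those of RefSeq (GRCh38.p14).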

Additional observations from a re-analysis of the deposited data

Results flagged for a closer look

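The stage change of 31 named genes differed between glia-side and neuron-side cells by the test of the difference itself (edgeR, adjusted p under 0.05). Values are the glia-side minus the neuron-side log2(Fold change), with 2 libraries a stage, and what lies behind them was not tested. Beside TNR (5.94), IGSF21 (5.31), AC012405.1 (5.07), LUZP2 (5.02), PTPRE (4.97), RBFOX3 (3.97) and CDKN1C (3.63), higher values on the glia side were found for PCDH15 (3.83), ZFPM2-AS1 (3.17), ZFPM2 (2.71), SLIT1 (3.82), DLL3 (2.40), TENM2 (2.10), SPARCL1 (2.02), S100B (2.01), GRIK2 (1.60), SDC3 (1.43), EPHA4 (1.37) and SOX8 (1.25). For RBFOX3, TENM2 and EPHA4 the log2(Fold change) in all cells was below 0 (-1.58, -2.22 and -1.33). Higher values on the neuron side were found for PDZRN3 (-4.03), NHS (-3.30), GALNT9 (-3.03), AL122014.1 (-2.99), MYO3A (-2.90), GABRB1 (-2.44), TEPP (-2.38), PRKG1 (-2.10), LMO3 (-2.05), MGST1 (-1.94), NRXN3 (-1.94) and NEUROG2 (-1.23). GABRB1 had 12.1 and 8.51 CPM at 2MPT (HIP and PFC) and 179 and 39.8 CPM at 4MPT in neuron-side cells, against 41.6 and 38.5 CPM at 2MPT and 123 and 30.0 CPM at 4MPT in glia-side cells. PTPRE stood on 2 UMIs in the glia-side cells of both 2MPT libraries together. Without PFC_2MPT 14 of the 31 differences lost the call, against 2 without HIP_2MPT and 1 without HIP_4MPT and 1 without PFC_4MPT.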

How the results depend on the processing

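Under every alternative, the named genes that were called kept the sign of their log2(Fold change). Named genes without a call are not covered by this. Of 146 named genes called in all cells 26 were called under every alternative, and of those called in neuron-side cells, glia-side cells and as a difference 31 of 49, 61 of 93 and 15 of 31. The named calls in all cells lost with DESeq2 were those of GSX1, GSX2, RPRML, ETV1 and GABRB1. In all cells 101 named calls were lost without HIP_4MPT, 111 without PFC_4MPT, 12 without HIP_2MPT and 1 without PFC_2MPT, where the lone library of a stage is assumed to vary like the others, 37 with thinned cells (which leaves out shallower cells), 11 with RLE factors and 5 with DESeq2. Leaving a library out gave 76 to 1009 genes higher and 3 to 539 lower in all cells, 106 to 398 and 33 to 328 in neuron-side cells, 274 to 537 and 75 to 248 in glia-side cells and 85 to 306 and 49 to 264 for the difference. The highest counts came without PFC_2MPT in all and in neuron-side cells and without HIP_2MPT in glia-side cells, and the lowest for the difference without PFC_2MPT. Without HIP_4MPT all cells gave 100 higher and 7 lower, and without PFC_4MPT 76 higher and 3 lower. Neuron-side cells gave 193 higher and 75 lower without HIP_2MPT, and glia-side cells 414 higher and 203 lower without PFC_2MPT and 433 higher and 144 lower without PFC_4MPT. Without the filter on low counts the counts were 1031 higher and 400 lower in all cells, 492 higher and 299 lower in neuron-side cells, 663 higher and 229 lower in glia-side cells and 579 higher and 443 lower for the difference. DESeq2 gave 487 higher and 202 lower, 182 higher and 129 lower, 305 higher and 85 lower and 90 higher and 107 lower in that order, and thinned cells 222 higher and 53 lower in all cells. With a gate ratio of 2, glia-side cells gave 378 higher and 131 lower. The cause of these shifts was not tested. With graft site as a block the counts were 560 higher and 173 lower in all cells, 270 higher and 162 lower in neuron-side cells and 501 higher and 185 lower in glia-side cells. The labels give no pairing of the libraries beyond the site, and 1 named call in all cells was lost with the block. With 2 libraries a stage and a median of 1253 UMIs a cell in the shallowest library, small changes and genes of few UMIs could not be resolved.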
